A study of Ovis aries with 20 samples.

Results

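The comparison set pancreas of CFTR−/− fetal sheep at 120 days of gestation against the same genotype at 100 days. Its members were the 4 libraries of CF pancreas labelled with those ages, 2 animals per age, out of 20 libraries in the series, and every gene of the count table was considered: 18737 of 24478 genes had enough counts to be tested. The CFTR−/− fetuses were clones made by somatic cell nuclear transfer from 1 male American Romney fetal fibroblast line (CF 60) in which exon 2 of CFTR had been targeted, so all CF animals share the genome of a single edited line. The wild-type (WT) fetuses, 2 per age, came from ordinary breeding. They enter only where the genotypes are compared or the spread within an age is shown. The series followed bulk tissue, dissected from the center of the pancreas, of both genotypes at 65, 80, 100 and 120 days and at term. The question put to this interval is how the transcripts of this tissue differ between the later 2 fetal ages when CFTR is missing. Libraries were made from poly(A) RNA of bulk tissue with a directional kit.

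CFTR is a chloride and bicarbonate channel of the apical membrane of duct cells, and it keeps the enzyme-rich juice of the pancreas fluid and alkaline. During the second part of fetal life acinar cells fill with digestive enzymes and build the endoplasmic reticulum (ER) and Golgi machinery that secretes them, while progenitor and dividing cells become rarer. In cystic fibrosis the ducts become blocked before birth, and acini are later replaced by cysts, fibrous tissue and fat.

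The 100-day libraries held 63174816 counts for animal 1 and 35973948 for animal 2, and the 120-day libraries held 63486596 and 63703746. Levels are CPM, the counts of a gene per 1000000 counts, on library sizes scaled by the trimmed mean of M-values (TMM), where 1 count equals 0.0162, 0.0215, 0.0171 and 0.0194 CPM in that order. Values below are always given for animal 1 and then animal 2 of an age. The animal label of the second 100-day library, SF177-1, also stands on the first WT library of 65 days, so 1 of the 2 labels may be wrong. The design text of the series names tracheal epithelium whereas the sample labels name pancreas.

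CFTR itself, on chromosome 4 from 50644000 to 50864925 in Oar_v4.0, was present in all 4 libraries at 19.5 and 24.6 CPM at 100 days and at 12.01 and 27.1 CPM at 120 days. The ranges overlapped, and the log2 fold change was -0.17 (SE 0.374). Counts summed over the whole gene do not resolve the targeted exon, so these levels do not check the genotype. The pancreas label did find its defining transcripts: CPA1, a digestive carboxypeptidase, stood at 17530 and 1195 CPM at 100 days and at 29820 and 28500 CPM at 120 days. Glucagon (GCG), the hormone of alpha cells, stood at 5414 and 607 CPM and at 2200 and 3224 CPM. Both markers were low in 100-day animal 2 and high in the other 3 libraries.

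The 100-day animals stood far apart from each other. Across genes the median absolute log2 difference between the animals of an age was 0.69 at 100 days, against 0.35 at 120 days, 0.33 at 65 days, 0.41 at 80 days and 0.52 at term. The 21 acinar enzymes in the table summed to 56080 CPM in 100-day animal 1 and to 4345 CPM in animal 2, while the 120-day animals held 104400 and 106500 CPM. A list of 20 genes of all leukocytes summed to 182 CPM in animal 1 and to 1430 CPM in animal 2, against 150 and 158 CPM at 120 days. A list of 12 adipocyte genes summed to 12.2 and 469 CPM, against 16.8 and 27.5 CPM. The 10 genes with the most counts took 24.9% of animal 1 and 8.94% of animal 2, against 32.9% and 33.1% at 120 days. In bulk tissue, fewer cells of a type and less RNA per cell cannot be told apart. Because of this gap the levels of both 100-day animals are shown for most genes, and most list medians below are given against both and against each apart; those comparisons share the 120-day libraries.

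**Figure D1:**
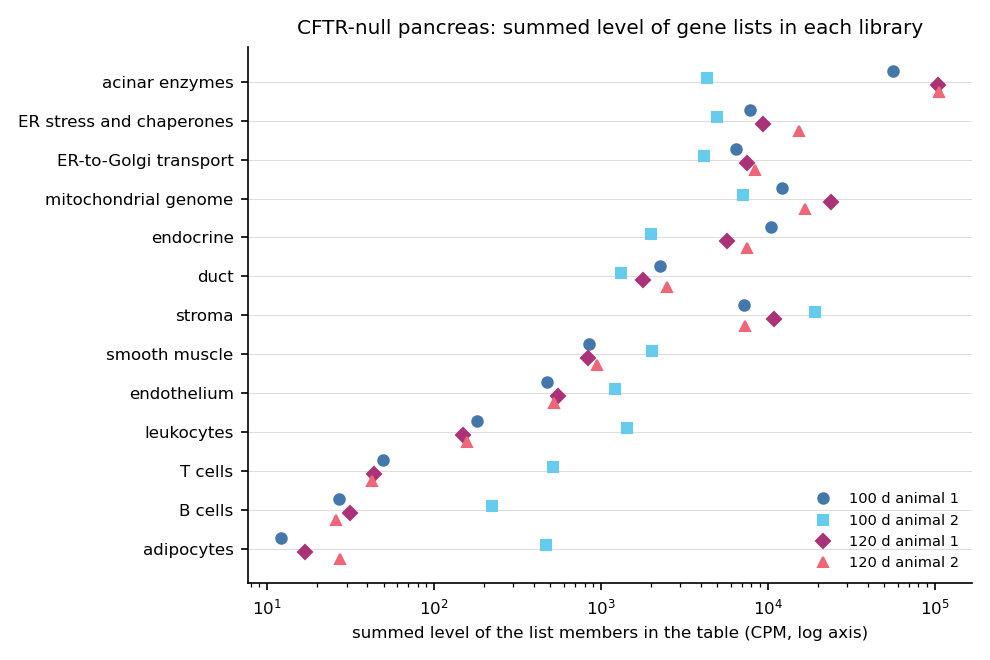
Summed level of 13 gene lists, in CPM on a log axis, with 1 point for each of the 4 CFTR−/− libraries (circle and square, 100 days; diamond and triangle, 120 days). For acinar enzymes the square of 100-day animal 2 lies at 4345 CPM, far left of the other 3 points, and for leukocytes at 1430 CPM it lies far right of them.

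Against both 100-day animals, the genes with the smallest unadjusted p lay on both sides at 120 days, with none past the threshold after adjustment. Genes with a name whose libraries did not overlap were ranked by that p, so separation of the ages was a condition of choice, not a result. It held for 42.9% of all genes tested. The lower side was led by fibrillin 3 and nestin, and the higher side by CRY2 and EDEM1. FBN3, a microfibril protein made mainly before birth (chromosome 5, 14397671 to 14467101), stood at 23.3 and 21.6 CPM at 100 days and at 4.58 and 8.58 CPM at 120 days. Both later animals were well below both earlier ones, and the log2 fold change was -1.77 (SE 0.308, unadjusted p = 0.000219). NES, the intermediate filament nestin of progenitor cells, stood at 76.8 and 133 CPM and at 33.1 and 38.5 CPM (log2 fold change -1.55, SE 0.319). HES6, a helix-loop-helix regulator of the HES family, stood at 15.9 and 9.60 CPM and at 2.05 and 3.61 CPM (log2 fold change -2.17, SE 0.475). EZH2, the histone methyltransferase of Polycomb repressive complex 2, stood at 37.4 and 55.0 CPM and at 18.4 and 24.5 CPM (log2 fold change -1.11, SE 0.248). For all 3 of these genes the lowest 100-day library exceeded the highest 120-day library, as the choice required.

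The other genes on the lower side had varied roles. AURKB, the kinase that corrects chromosome attachment in mitosis, stood at 21.0 and 32.0 CPM at 100 days and at 11.7 and 12.1 CPM at 120 days. CTSZ, a lysosomal cysteine protease, stood at 73.9 and 192 CPM and at 30.6 and 45.5 CPM. B4GALNT1, an enzyme of ganglioside synthesis, stood at 7.56 and 24.8 CPM and at 2.67 and 3.61 CPM. In the last pair 100-day animal 2 was the high library, and the difference from animal 1 alone was smaller (log2 fold change -1.27 from animal 1 and -2.95 from animal 2). The membrane protein PLPPR3 had log2 fold changes of -1.14 from animal 1 and -1.78 from animal 2. NKAIN1, a partner of the sodium pump, had -1.77 and -2.50, and the G protein subunit GNG8 had -2.24 and -5.08. Being lower than each 100-day library was a condition of choice for all 3.

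On the higher side CRY2, a repressor of the circadian clock, was nearly silent at 100 days, with 7 counts in animal 1 and 0 in animal 2, against 342 and 128 counts at 120 days. Its levels at 120 days were 5.84 and 2.49 CPM, and the log2 fold change was 6.07 (SE 1.22, unadjusted p = 0.000632). Against animal 2 alone CRY2 was at least 64.6-fold higher, taken against 3 counts in that library. At the ages outside the interval it was measurable, at 3.01 and 3.81 CPM at 65 days, 2.602 and 1.29 CPM at 80 days, with 1.11 and 1.51 CPM at term. The 100-day libraries were therefore the low ones among all 10 CF libraries.

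EDEM1, which hands misfolded glycoproteins over for degradation, stood at 35.1 and 15.8 CPM at 100 days and at 70.0 and 83.2 CPM at 120 days (log2 fold change 1.59, SE 0.351, unadjusted p = 0.00122). KDELR3, a receptor that returns ER proteins from the Golgi, stood at 30.4 and 31.4 CPM and at 67.3 and 66.8 CPM (log2 fold change 1.12, SE 0.263). ARF4, a small GTPase of Golgi traffic, stood at 9.34 and 3.16 CPM and at 41.9 and 20.2 CPM (log2 fold change 2.31, SE 0.549). By the choice of genes each 120-day animal exceeded each 100-day animal in these 3, and KDELR3 differed least within an age. A further 5 genes with small p stood on the same side. SQSTM1, which carries ubiquitinated cargo to autophagosomes, had 24.3 and 17.1 CPM against 60.9 and 39.3 CPM. BNIP3L, a receptor for the removal of mitochondria, had 8.66 and 5.01 CPM against 26.3 and 14.4 CPM. UBQLN1, which ferries proteins to the proteasome, had 3.34 and 1.76 CPM against 11.1 and 8.66 CPM. The libraries of the ages did not overlap for any of the 3, again by the choice of genes. IVD, an enzyme of leucine breakdown, and ZC3H11A, a factor of mRNA export, also stood on this side. Their log2 fold changes were 1.99 (SE 0.489) and 2.31 (SE 0.565). On the scale of all 20 libraries, the WT animals of 120 days stood at 67.35 and 33.65 CPM for SQSTM1. For BNIP3L they stood at 28.42 and 9.419 CPM, and for UBQLN1 at 21.85 and 4.501 CPM. Animals of an age thus differed in these genes too, and the part of single libraries was not tested.

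**Figure D2:**
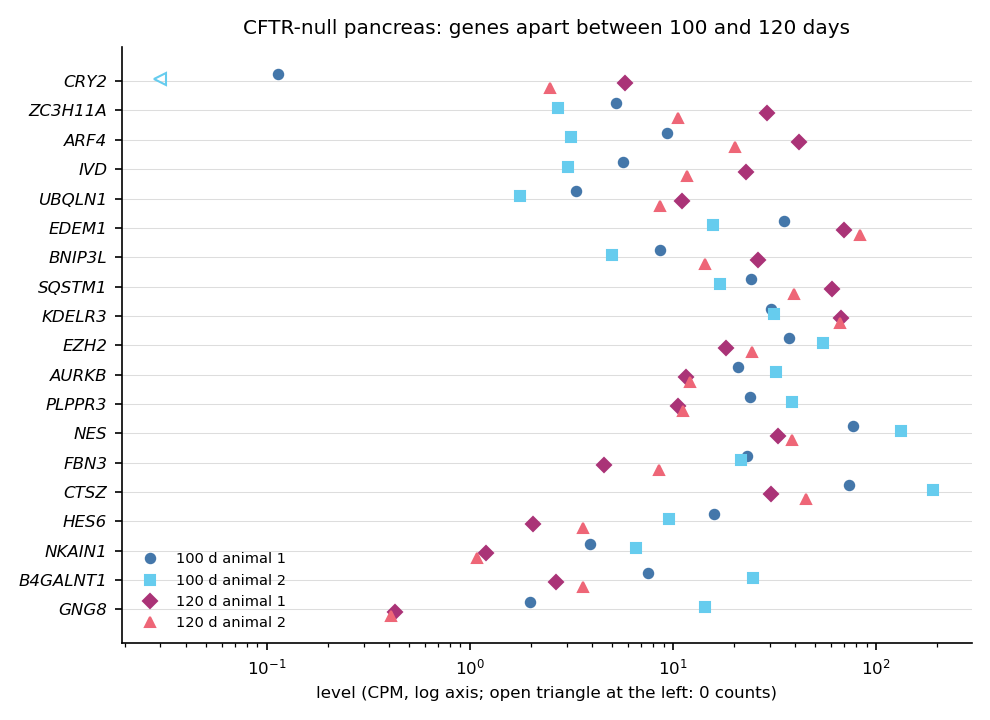
Level of the genes named above, which had the smallest p in either direction among those whose libraries did not overlap between ages, in CPM on a log axis, with 1 point for each of the 4 CFTR−/− libraries. CRY2 had 0 counts in 100-day animal 2, drawn as an open triangle, and FBN3 shows the 2 100-day libraries side by side at 23.3 and 21.6 CPM.

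These values did not pass the test across all genes. The threshold was an adjusted p of 0.01 or less together with a log2 fold change of 0.58 or more in either direction, and edgeR's quasi-likelihood test with Benjamini-Hochberg adjustment called 0 of 18737 genes, its smallest adjusted p being 0.521. At an unadjusted p under 0.05 it held 1782 genes, the likelihood ratio test of edgeR called 1 gene (CRY2) and the Wald test of DESeq2 called 16 (0.074%). With the looser threshold of an unadjusted p of at most 0.01 and the same fold, 236 genes (1.26%) remained: 119 (0.635%) were higher and 117 (0.624%) were lower at 120 days, a split of 138 and 92 in a fit of all 20 libraries and of 249 and 132 with a replicate block. Removing a trend of fold change with gene length moved the median log2 fold change of all genes from 0.01 to -0.14, and that split became 100 higher and 183 lower. The count called was 316 without 100-day animal 1 and 0 without each of the other 3 libraries of these ages; libraries of the other ages were not left out. The looser count depended on single libraries: it was 2721 without 100-day animal 1, 44 without 100-day animal 2, 27 without 120-day animal 1 and 162 without 120-day animal 2. In each such fit the lone library of an age is assumed to vary like animals at the remaining ages. The p-values measure only the spread between these animals, and the smallest two-sided p that an exact permutation of 2 libraries against 2 can reach is 0.333. The levels of all 4 libraries lay apart between ages for 8030 genes (42.9%), 4362 (23.3%) that were higher and 3668 (19.6%) that were lower.

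Digestive enzymes were more abundant at 120 days than in either 100-day animal, but by very different amounts. All 21 tested acinar genes of a list of 30 were on the higher side, 20 of them without overlap, against 23.3% of all genes. Their median log2 fold change was 1.89 against both animals, 1.01 against animal 1 and 4.64 against animal 2, where the median of all genes tested was 0.01, 0.02 and 0.17. At the looser threshold 1 of the 21 was higher (ZG16), against 0.635% of all genes. PRSS2, a trypsinogen, stood at 3142 and 403 CPM at 100 days and at 6851 and 8348 CPM at 120 days. CEL, the bile salt-dependent lipase, stood at 7789 and 601 CPM and at 16540 and 14530 CPM. PLA2G1B, the secreted phospholipase A2, stood at 1033 and 185 CPM and at 2780 and 2983 CPM. For these enzymes 100-day animal 1 lay below both 120-day animals, and animal 2 lay far beneath it. The exception to the separation was CELA3B, an elastase, at 4407 and 253 CPM against 4177 and 6094 CPM, so that 100-day animal 1 fell between the 120-day animals. Trypsinogens and elastases have near-identical copies whose reads the counting could split, and their single levels are uncertain.

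The lectin ZG16 of zymogen granules stood at 34.2 and 4.36 CPM at 100 days and at 133 and 163 CPM at 120 days (log2 fold change 2.94, SE 0.886). REG1A, a secreted lectin-like protein of acinar cells that is abundant in injured pancreas, stood at 116 and 55.5 CPM and at 797 and 868 CPM (log2 fold change 3.28, SE 0.78, unadjusted p = 0.002). Its 120-day level was far above both 100-day libraries, with log2 fold changes of 2.85 from animal 1 and 3.94 from animal 2. The other gene of its family in the table, REG4, had 0 counts in all 4 libraries. All 4 tested acinar transcription factors of a list of 6 were on the higher side against both animals, with a median of 1.05, but only 2 of 4 were so against animal 1 alone (median 0.29, against 2.89 from animal 2). XBP1, the factor that drives ER expansion, stood at 726 and 220 CPM and at 1103 and 1194 CPM. GATA4, a factor of the early pancreas, stood at 17.1 and 3.37 CPM and at 45.0 and 23.7 CPM. Neither gene overlapped between the ages.

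Most genes of ER stress and folding lay on the higher side against each 100-day library, few of them past the looser threshold and none called. Acinar transcripts lay on the same side in these libraries, and their part in the result was not tested. Of 35 tested, 34 were higher at 120 days, 24 without overlap (23.3% of all genes), with 3 past the looser threshold (EDEM1, DNAJC3 and ATF6; 0.635% of all genes) and a median log2 fold change of 0.92 (0.65 against animal 1 and 1.40 against animal 2). DNAJC3, a co-chaperone of the ER lumen, stood at 94.3 and 52.3 CPM and at 186 and 218 CPM (log2 fold change 1.46, SE 0.379). HSP90B1, the ER form of HSP90 and the list member with the most counts, stood at 1386 and 1043 CPM and at 1451 and 3157 CPM. Here 120-day animal 2 was the high library, and 120-day animal 1 barely exceeded 100-day animal 1. The whole list summed to 7805 and 4965 CPM at 100 days and to 9368 and 15370 CPM at 120 days. Of 42 genes of transport between ER and Golgi, 37 were higher, 28 without overlap (23.3% of all genes), with 4 past the looser threshold (KDELR3, ARF4, USO1 and BET1; 0.635% of all genes) and medians of 0.44, 0.27 and 0.73 in the same order. SSR4, a subunit of the translocon-associated complex, stood at 920 and 355 CPM and at 1201 and 1342 CPM. In a list of heat shock genes 15 of 18 were on the higher side but only 1 without overlap, with medians of 0.29, 0.25 and 0.14, and the list summed to 4258 and 3210 CPM and to 2949 and 6495 CPM. HSP90AB1 stood at 856 and 723 CPM and at 604 and 788 CPM, with 120-day animal 1 the lowest of the 4. Without 120-day animal 2 the heat shock median was -0.52.

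All 13 protein-coding genes of the mitochondrial genome were on the higher side, 11 without overlap (23.3% of all genes), the median log2 fold change being 1.20 (0.80 against animal 1 and 1.81 against animal 2) and 1 past the looser threshold (ATP8; 0.635% of all genes). They summed to 12270 and 7111 CPM at 100 days and to 24130 and 16800 CPM at 120 days. COX3, a subunit of cytochrome c oxidase, stood at 2975 and 1779 CPM and at 4864 and 4234 CPM. ND4, a subunit of complex I, stood at 867 and 343 CPM and at 2818 and 1417 CPM. ATP8, a small subunit of ATP synthase, stood at 17.5 and 10.9 CPM and at 183 and 33.1 CPM. Every 120-day animal exceeded every 100-day animal for these 3 genes, and 120-day animal 1 was the highest. On the scale of all 20 libraries, the WT animals of 120 days stood at 3726 and 2185 CPM for COX3. For ND4 they stood at 3155 and 597.6 CPM, and for ATP8 at 121.8 and 7.042 CPM. These transcripts thus also differed between animals of an age, and the part of single libraries was not tested. Acinar transcripts differ between the libraries too, and their part in the result was not tested.

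Most genes of mitosis were on the lower side at 120 days, by small amounts, and genes of DNA replication were divided; the difference between the lists was not tested. Of 25 mitotic genes 21 were on the lower side, 17 without overlap against 19.6% of all genes, the median log2 fold change being -0.49 (-0.33 against animal 1 and -0.54 against animal 2) and 1 past the looser threshold (AURKB; 0.624% of all genes). TOP2A, which untangles replicated chromosomes, stood at 47.0 and 60.6 CPM at 100 days and at 33.3 and 30.1 CPM at 120 days. UBE2C, a ubiquitin-conjugating enzyme of the anaphase-promoting complex, stood at 33.5 and 41.4 CPM and at 21.0 and 22.9 CPM. In both genes, as in AURKB, the ages did not overlap. The 28 replication genes divided into 14 higher and 14 lower, 4 and 7 of them without overlap against 23.3% and 19.6% of all genes, with a median of -0.00 (-0.08 against animal 1 and -0.01 against animal 2). MCM7, a subunit of the replicative helicase, stood at 139 and 139 CPM and at 101 and 105 CPM. MCM10, which helps to load the polymerases and was the list member past the looser threshold (0.635% of all genes), went the other way, with 6.18 and 6.12 CPM against 11.4 and 14.4 CPM. The sum of the replication list was close in the 4 libraries, at 829 and 823 CPM and at 778 and 784 CPM.

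Signalling lists were mixed. Of 16 Notch genes 12 were on the lower side, 6 without overlap against 19.6% of all genes, and 4 on the higher side, 3 without overlap against 23.3%, with medians of -0.32 against both animals, -0.08 against animal 1 and -0.47 against animal 2. NOTCH1, a receptor, stood at 56.9 and 68.5 CPM and at 40.3 and 43.7 CPM, without overlap. The ligand JAG1 stood at 56.7 and 125 CPM and at 54.3 and 54.3 CPM, so that only animal 2 was high. Of 10 tested genes of the insulin-like growth factor system 6 were lower, with a median of -0.15 against both animals, 0.53 against animal 1 and -0.43 against animal 2. IGFBP4, a binding protein, stood at 9.76 and 14.1 CPM and at 53.5 and 19.0 CPM. IGF2, the fetal growth factor, stood at 17.7 and 89.1 CPM and at 15.3 and 14.6 CPM, high only in 100-day animal 2. Of 15 clock genes 12 were higher, 7 without overlap against 23.3% of all genes, with a median of 0.68 (0.26 against animal 1, and 1.07 against animal 2, where it is 0.74 with genes at 0 set to their bound). TEF, the clock gene with the most counts, differed little, at 47.1 and 41.6 CPM and at 50.5 and 56.8 CPM. Of 13 complement genes 8 were higher and 6 did not overlap, against 23.3% of all genes, with medians of 0.11, 0.92 and -0.17. CFI, the protease that inactivates complement, stood at 207 and 87.5 CPM and at 319 and 331 CPM. Of 77 ribosomal protein genes 33 were higher against both animals, 15 against animal 1 and 41 against animal 2, with medians of -0.07, -0.16 and 0.08 (the last 0.04 with genes at 0 set to their bound). FAU, which encodes a ribosomal protein, stood at 1296 and 1512 CPM and at 901 and 1296 CPM.

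Against 100-day animal 1 alone, the 120-day animals differed in few genes. FBN3 and HES6 had the smallest p on the lower side and CRY2 on the higher side. SYT11, a synaptotagmin of vesicle traffic, stood at 22.3 CPM in animal 1 and at 9.04 and 8.23 CPM at 120 days (log2 fold change -1.37, SE 0.285). UCHL1, a deubiquitinase of neurons and islet cells, stood at 135 CPM and at 59.7 and 67.3 CPM (log2 fold change -1.09, SE 0.274). COL9A3, a collagen IX chain, stood at 37.4 CPM and at 15 and 19.6 CPM (log2 fold change -1.11, SE 0.282). Animal 2 had 13.9 CPM of SYT11, 99.4 CPM of UCHL1 and 26.2 CPM of COL9A3, also above both 120-day animals. DIRAS3, an imprinted GTPase of the RAS family, stood at 949 CPM in animal 1 but at 147 CPM in animal 2, with 282 and 293 CPM at 120 days between them. Its log2 fold change was -1.72 from animal 1 and 1.00 from animal 2, so the 100-day animals give opposite directions.

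On the higher side from animal 1, NARF, a nuclear protein that binds prelamin A, stood at 11.8 CPM in animal 1 and at 32.6 and 21.9 CPM at 120 days (log2 fold change 1.20, SE 0.334), with 14.6 CPM in animal 2. PODXL, a sialomucin of apical membranes, had 2 counts in animal 1 and 239 counts over the 120-day libraries, a ratio of 67.0 with a 95% counting interval of 18.3 to 556. Its levels at 120 days were 3.42 and 0.757 CPM, and in animal 2 it stood at 0.773 CPM, so that animal 2 lay between the 120-day animals. BHLHE40, a clock-linked repressor, had 0 counts in animal 1 and was at least 33.6-fold higher at 120 days, at 2.07 and 1.20 CPM, with 0.795 CPM in animal 2. CYM, the milk-clotting protease chymosin, stood at 0.746 CPM in animal 1 and at 6.39 and 28.8 CPM at 120 days, but at 18.1 CPM in animal 2.

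None of these passed across the table. With animal 1 as the lone 100-day library edgeR's quasi-likelihood test with Benjamini-Hochberg adjustment called 0 of 19503 genes, its smallest adjusted p being 1.00, with 501 genes at an unadjusted p under 0.05. DESeq2's Wald test called 2 (CRY2 and LOC101111210, which has no name), and the likelihood ratio test called 0. At the looser threshold 44 genes (0.226%) remained, of which 26 (0.133%) were higher and 18 (0.0923%) were lower. Lists of leukocytes, stroma and muscle had medians on either side of 0 in this comparison. The median log2 fold change was -0.09 over 20 leukocyte genes, 0.01 over 18 T cell genes, -0.26 over 18 B cell genes, 0.32 over 23 myeloid genes, 0.39 over 24 stromal genes and 0.27 over 17 smooth muscle and stellate cell genes.

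Against 100-day animal 2 alone many more genes differed. Some genes of acinar cells rose, as did SLC4A4 and MUC1 of the duct list. Some genes of leukocytes, smooth muscle and matrix fell, as did FABP4 of the adipocyte list. With animal 2 as the lone 100-day library the same edgeR test called 316 of 19593 genes (1.61%), 241 higher (1.23%) and 75 lower (0.383%), a split of 282 and 9 with all 20 libraries but 1 and of 228 and 170 with the length trend removed, while its count was 0 without 120-day animal 1, 0 without 120-day animal 2 and 886 without the second term library, the only libraries left out here. DESeq2's Wald test called 2503. At the looser threshold 2721 genes (13.9%) remained, of which 1781 (9.09%) were higher and 940 (4.8%) lower. The rise and fall below are therefore differences from 1 library, and none of them was called by this test when 100-day animal 1 was in the fit.

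The 6 genes with the smallest p that rose were all far more abundant in 100-day animal 1 than in animal 2. CRISP2, a cysteine-rich secretory protein, stood at 0.816 CPM in animal 2 and at 79.3 and 44.8 CPM at 120 days (log2 fold change 6.27, SE 0.569, adjusted p = 0.00244 by edgeR), with 27.3 CPM in animal 1. SLC4A4, the bicarbonate cotransporter of the basolateral duct membrane, stood at 7.86 CPM in animal 2 and at 72.5 and 80.5 CPM at 120 days, with 55.3 CPM in animal 1. GJB1, the gap junction protein connexin 32 of acinar cells, stood at 6.57 CPM and at 96.7 and 80.0 CPM, with 63.2 CPM in animal 1. Animal 2 was the low library for each of these. FXYD3, a regulator of the sodium pump in epithelia, stood at 4.49 CPM and at 59.2 and 57.4 CPM, with 54.6 CPM in animal 1. C1H1orf210 stood at 2.23 CPM and at 33.8 and 31.3 CPM, with 25.3 CPM in animal 1. FAM177B had 0 counts in animal 2 and was at least 338-fold higher at 120 days, at 20.3 and 23.2 CPM, with 14.2 CPM in animal 1. In all 6 animal 2 was far below the other libraries, and animal 1 lay below both 120-day animals, by less. Of the 21 acinar genes 8 rose, against 1.23% of all genes, CELA3B (adjusted p = 0.0096 by edgeR) and PLA2G1B (adjusted p = 0.0092) among them, and the median of the list was 4.64.

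Of the genes that fell, LAT, the adaptor of T cell receptor signalling, stood at 86.8 CPM in animal 2 and at 1.64 and 2.76 CPM at 120 days (log2 fold change -5.27, SE 0.511, adjusted p = 0.00244 by edgeR), with 1.41 CPM in animal 1. RELN, the secreted glycoprotein reelin, stood at 30.9 CPM and at 4.30 and 4.23 CPM, with 5.64 CPM in animal 1. PIEZO2, a mechanosensitive channel, stood at 47.3 CPM and at 8.30 and 7.03 CPM, with 9.57 CPM in animal 1. Only animal 2 was high for these genes. ZEB2, a repressor of epithelial genes, stood at 104 CPM and at 19.6 and 16.6 CPM, with 16.1 CPM in animal 1. DGAT2, which makes triglycerides, stood at 86.0 CPM and at 7.79 and 5.96 CPM, with 4.91 CPM in animal 1. SBSPON, a secreted matrix protein, stood at 22.8 CPM and at 1.38 and 1.32 CPM, with 0.908 CPM in animal 1. Once more animal 2 was the library that stood apart, and for LAT, ZEB2, DGAT2 and SBSPON the sign turned when animal 1 was taken as the lone 100-day library, with log2 fold changes of 0.64, 0.17, 0.49 and 0.57.

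Leukocyte markers had some of the widest gaps. Of 20 genes of all leukocytes 19 were lower against both animals, 9 without overlap and 5 past the looser threshold, against 19.6% and 0.624% of all genes, with medians of -2.95 against both and -3.78 against animal 2, and 5 of 20 fell against animal 2 (PTPRCAP, CORO1A, JAK3, PIK3CD and LIMD2; 0.383% of all genes). LAPTM5, a lysosomal protein of leukocytes and the list member with the most counts, stood at 24.5 and 244 CPM at 100 days and at 23.5 and 22.9 CPM at 120 days. PTPRCAP, a partner of CD45, stood at 8.40 and 69.8 CPM and at 3.86 and 4.93 CPM. Animal 2 was the single high library for both. Of 17 tested T cell genes 15 were lower, with a median of -4.33 against both animals, 0.01 against animal 1 and -4.997 against animal 2, and 3 of 18 fell against animal 2 (LCK, LAT and SKAP1; 0.383% of all genes). The T cell list summed to 49.5 and 520 CPM and to 43.6 and 42.7 CPM. SKAP1, its member with the most counts, stood at 24.0 and 59.3 CPM and at 11.99 and 15.6 CPM. CD5, a coreceptor of T cells, stood at 0.584 and 23.1 CPM and at 0.0854 and 0 CPM. For both genes 100-day animal 1 also exceeded the 120-day animals, by far less than animal 2 did. CD4 and CD27 had 0 counts in all 4 libraries, and CD8A and CD28 had 0 in 100-day animal 1.

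All 18 B cell genes were on the lower side against both animals (median -2.34) and against animal 2 (median -3.20), but 6 of 18 were higher against animal 1 (median -0.26). Their sums were 27.2 and 223 CPM and 31.4 and 26.0 CPM, so that only animal 2 was high. JCHAIN, which joins secreted antibodies and was the member with the most counts, stood at 4.01 and 67.3 CPM and at 4.90 and 5.77 CPM. IGHM, the heavy chain of IgM, stood at 3.55 and 63.9 CPM and at 0.547 and 0.757 CPM. CD79B, part of the B cell receptor, had 860 counts over the 100-day libraries, 840 of them in animal 2, and 2 counts over the 120-day libraries. The ratio was 0.00229 with a 95% counting interval of 0.000277 to 0.00829. Taken apart, it was 0.056 (0.00635 to 0.231) against animal 1 and 0.00101 (0.000122 to 0.00365) against animal 2. PAX5 and FCRLA had 0 counts in every library but 100-day animal 2. Of 23 myeloid genes 19 were lower, with a median of -1.56 that is -1.18 with genes at 0 in a whole age set to their bound of 3 counts per library; it was 0.32 against animal 1 and -2.37 against animal 2 (-2.08 with the bound). They summed to 101 and 526 CPM and to 117 and 121 CPM, and C1QB, the member with the most counts, stood at 15.5 and 105 CPM and at 15.7 and 15.7 CPM. Of 9 genes of lymph nodes and their vessels 8 were lower, with medians of -1.85, 0.25 and -2.66 against both animals, animal 1 and animal 2. CCL19, a chemokine of lymphoid tissue, stood at 1.07 and 190 CPM and at 0.188 and 0.194 CPM, and the list summed to 61.1 and 381 CPM and to 89.3 and 70.6 CPM. A list of 11 thymus genes summed to 9.99 and 21.6 CPM and to 9.86 and 9.92 CPM. CCL25, its member with the most counts, differed little, at 6.08 and 8.10 CPM and at 6.71 and 6.83 CPM. AIRE stood at 0.276 and 4.66 CPM and at 0.342 and 0.117 CPM. DNTT stood at 0.0811 and 4.125 CPM and at 0 and 0.252 CPM. Both were highest in animal 2, where 4 of the 11 members had 0 counts. FOXN1 and RAG2 had 0 counts in all 4 libraries. The results against animal 2 move with these markers of other cell types, and their part in the result was not tested.

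Many fat and muscle genes were also high in 100-day animal 2. All 12 adipocyte genes were lower against both animals (median -2.65) and against animal 2 (median -3.52), whereas 8 of 11 were higher against animal 1 (median 0.79). ADIPOQ, the hormone adiponectin and the member with the most counts, had 0 counts in 100-day animal 1 and 236 CPM in animal 2, against 0.273 and 5.75 CPM at 120 days. FABP4, the fatty acid carrier of fat cells, stood at 0.389 and 99.8 CPM and at 0.837 and 3.01 CPM (log2 fold change -5.66 from animal 2, adjusted p = 0.00544 by edgeR). LEP, PLIN4 and UCP1 had 0 counts in every library but animal 2. Of 17 smooth muscle and stellate cell genes 13 were lower, with medians of -1.50 against both animals, 0.27 against animal 1 and -2.24 against animal 2, where 2 of 17 fell (ACTG2 and MYLK; 0.383% of all genes). ACTA2, smooth muscle actin, stood at 47.3 and 284 CPM and at 36.2 and 33.4 CPM. TPM2, a tropomyosin of smooth muscle, stood at 45.4 and 327 CPM and at 19.2 and 30.7 CPM. ACTG2, the enteric smooth muscle actin, stood at 1.35 and 32.6 CPM and at 0.530 and 0.485 CPM (log2 fold change -5.97 from animal 2, adjusted p = 0.00476 by edgeR). For these 3 genes 100-day animal 1 also lay above the 120-day animals, by less than the gap between the 100-day animals. TPM1, the member with the most counts, did not share the pattern, at 550 and 345 CPM and at 456 and 576 CPM.

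**Figure D3:**
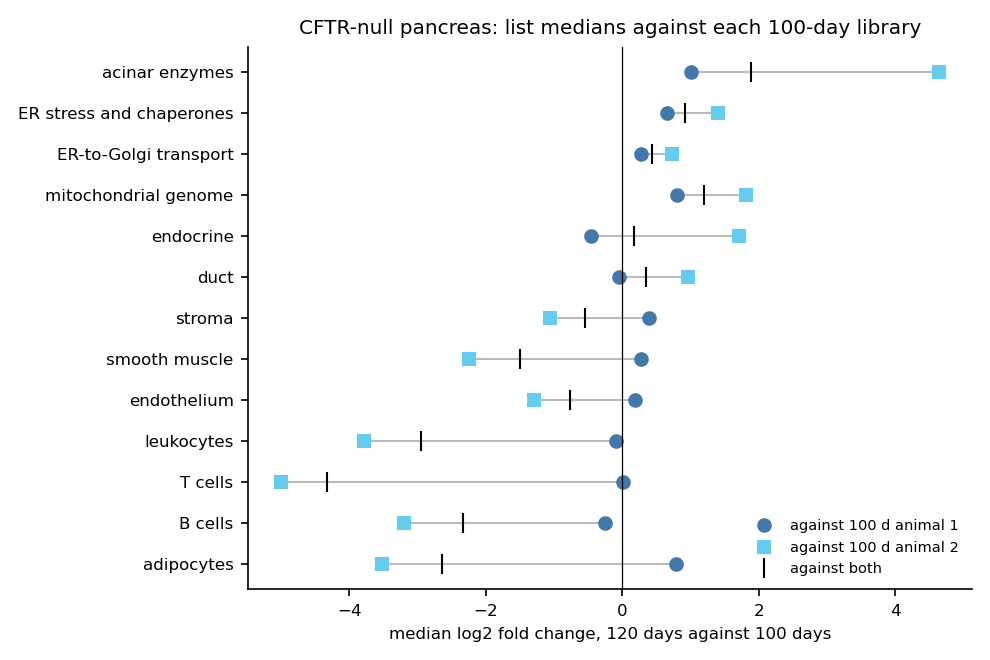
Median log2 fold change of 13 gene lists at 120 days against 100-day animal 1 (circle), against animal 2 (square) and against both (bar); the comparisons share the 120-day libraries. For acinar enzymes the points lie at 1.01 and 4.64, both above 0, and for stroma at 0.39 and -1.06, on opposite sides of 0.

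Collagens and other stromal genes turned with the 100-day animal used. Of 24 genes 19 were lower against both animals (median -0.54), 19 were higher against animal 1, and 3 of 24 fell against animal 2 (FBN2, VCAN and ELN; 0.383% of all genes), with a median of -1.06. COL1A1, the chain of type I collagen, stood at 1074 and 1927 CPM at 100 days and at 1990 and 988 CPM at 120 days, with full overlap. COL3A1, the type III collagen, stood at 2353 and 6244 CPM and at 3424 and 2441 CPM. DCN, a small proteoglycan, stood at 285 and 665 CPM and at 421 and 319 CPM. SPARC, a matrix protein of activated stellate cells, stood at 774 and 2233 CPM and at 1152 and 924 CPM. In these last 3 genes the 120-day animals lay between the 100-day animals. VCAN, a large proteoglycan, stood at 22.2 and 91.7 CPM and at 22.6 and 14.3 CPM. FBN2, a microfibril protein of growing tissue, stood at 17.4 and 68.1 CPM and at 14.2 and 15.03 CPM. Both were high in animal 2 only. Of 16 endothelial genes 14 were lower (median -0.76, and -1.29 against animal 2), 12 were higher against animal 1 (median 0.19), and PLVAP, the member with the most counts, stood at 92.1 and 138 CPM and at 110 and 115 CPM.

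The direction of endocrine genes depended on which 100-day animal was used, and duct genes were divided. Of 30 endocrine genes 18 were higher against both animals, with a median of 0.17, but 5 of 30 were higher against animal 1 (median -0.46). Against animal 2 all 30 were higher (median 1.72, or 1.57 with genes at 0 set to their bound), PAX4 by almost nothing (log2 fold change 0.00). The list summed to 10440 and 2000 CPM and to 5703 and 7517 CPM, with GCG as the member with the most counts. SCGN, a calcium sensor of islet cells, stood at 272 and 66.1 CPM and at 147 and 183 CPM. ISL1, an islet transcription factor, stood at 34.4 and 9.11 CPM and at 22.4 and 27.1 CPM. As with GCG, the 120-day animals lay between the 100-day animals. Of 25 duct genes 15 were higher, 8 without overlap, and 10 were lower, 1 without overlap, against 23.3% and 19.6% of all genes. The duct medians were 0.35, -0.05 and 0.97 against both animals, animal 1 and animal 2. KRT8, a keratin of simple epithelia, stood at 456 and 171 CPM and at 365 and 515 CPM. KRT19, the duct keratin, stood at 126 and 112 CPM and at 55.6 and 113 CPM. The ages overlapped for both keratins. MUC1, an apical mucin, stood at 60.8 and 6.45 CPM and at 104 and 103 CPM, without overlap, and rose against animal 2 (adjusted p = 0.00244 by edgeR).

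The step from 100 to 120 days was then set against the same step in WT pancreas. All CF animals were clones of an edited line and the WT animals were bred. Genotype, cloning and the genome of the line therefore cannot be told apart here. HIBADH, VAPA and BCKDHB had the smallest p, among genes with a name and a mean of at least 1 CPM, where the CF step was more positive, and KCNN1, FABP4 and ADIPOQ where it was more negative. Levels here are CPM on the scale of all 20 libraries. HIBADH, an enzyme of valine breakdown, stood at 40.8 and 23.9 CPM and then 58.3 and 52.9 CPM in CF, and at 43.1 and 59.1 CPM and then 30.2 and 33.3 CPM in WT. VAPA, a tether of the ER membrane, stood at 60.6 and 52.2 CPM and then 79.1 and 81.0 CPM in CF, and at 82.8 and 79.4 CPM and then 60.3 and 51.1 CPM in WT. BCKDHB, a subunit of the branched-chain keto acid dehydrogenase, stood at 18.9 and 13.2 CPM and then 22.7 and 23.4 CPM in CF, and at 27.7 and 26.9 CPM and then 19.0 and 18.2 CPM in WT. For these genes each CF animal of 120 days exceeded each of 100 days, and the reverse held in WT. The difference between the steps was 1.47 (SE 0.338), 1.05 (SE 0.29) and 1.08 (SE 0.303) on the log2 scale.

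FABP4 stood at 0.396 and 99.9 CPM and then 0.849 and 3.07 CPM in CF, and at 0.0639 and 0.215 CPM and then 4.46 and 136 CPM in WT. ADIPOQ stood at 0 and 236 CPM and then 0.277 and 5.86 CPM in CF, and at 0.0426 and 0.230 CPM and then 12.5 and 175 CPM in WT. KCNN1, a calcium-activated potassium channel, stood at 0.841 and 19.2 CPM and then 0.364 and 0.258 CPM in CF, and at 0.170 and 0.369 CPM and then 0.510 and 15.9 CPM in WT. For these genes the second animal was the high one at 100 days in CF and at 120 days in WT. NES, at 78.1 and 133 CPM and then 33.6 and 39.3 CPM in CF, stood at 39.8 and 31.3 CPM and then 26.6 and 48.2 CPM in WT, and the step differed by -1.61 (SE 0.452). REG1A, at 118 and 55.6 CPM and then 808 and 885 CPM in CF, stood at 101 and 99.0 CPM and then 94.8 and 54.3 CPM in WT, and the step differed by 3.71 (SE 1.5). Acinar enzymes, with a median of 1.89 in CF (1.01 from animal 1 and 4.64 from animal 2), had a median of -0.10 in WT. The WT step also holds a library that stands apart: LAPTM5 stood at 25.8 and 14.9 CPM and then 14.7 and 211 CPM in WT, so each genotype holds 1 such library, and their part in the result was not tested.

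No gene passed the test of this difference. edgeR's quasi-likelihood test with Benjamini-Hochberg adjustment called 0 of 19522 genes (smallest adjusted p = 0.396), with 1924 genes (9.86%) at an unadjusted p under 0.05, and no other tool was run for it. The count was 191 without CF 100-day animal 1 and 1 without WT 120-day animal 1, where the gene was NPY, a neuropeptide named after its values were seen. Across genes, the library of CF 100-day animal 2 had its highest correlation of log2 CPM with the second WT library of 120 days (0.906). Close to it were 0.899 with the second CF library of 80 days and 0.89 with the first CF library of 65 days. The correlation was 0.882 with the first WT library of 80 days and 0.876 with CF 100-day animal 1. With the WT library that carries the same animal label it was 0.874. Genes are not independent replicates, and these values describe the libraries only.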

How the data were processed

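The authors aligned reads with STAR, version 2.6 in the submitters' processing notes, whereas the published methods name another version. They deposited raw featureCounts (1.6.3, Subread) counts per gene on Oar_v4.0, and the CF and WT tables were read as counts. All 10 CF libraries were fitted by age with edgeR 4.0.16 in R 4.3.3 (TMM, filterByExpr with a minimum count of 10 and total of 15, quasi-likelihood F test, Benjamini-Hochberg adjustment), and 120 days was set against 100 days, with both 100-day libraries or with 1 left out. The difference from WT used all 20 libraries. Standard errors are the absolute log2 fold change over the root of F. Genes at 0 are bounded at 3 counts per library, and bounds and intervals cover counting error only. Fitting was tested on simulated data, and no result of that test is given or used here.

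Named genes were the 10 per direction with the smallest p among those whose libraries did not overlap at a mean of 1 CPM or more (loci without a name were passed over throughout, also where they had a smaller p), 6 per direction against each 100-day library, 3 per direction for the genotype difference, for each of 34 lists the member with the most counts and the 2 with the smallest p, and genes the study followed. The text follows 100 of these 141 and mentions some others within lists. The members and lists were chosen with earlier results of these data known. Members with the most counts were chosen without regard to gene length. Of 8432 locus numbers 666 were named, 573 from the RefSeq table of ARS-UI_Ramb_v3.0 (names only) and 93 from tables of the study that pair locus and name.

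Alternatives were DESeq2 1.42.0 size factors or Wald test, no filter, an adjusted p of 0.05, the likelihood ratio test, glmTreat at 1.5-fold, the 4 libraries alone, all 20 libraries, a replicate block, removal of a length trend (loess span 0.3), and each library left out. Those for each 100-day library apart were added after the data were seen. No sequence is printed, since no genome was used here.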

Additional observations from a re-analysis of the deposited data

How the results depend on the processing

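Only 100-day animal 1 and some tests moved the count of genes called in the CF step, which was 0. It became 16 with the DESeq2 Wald test and 1 with the likelihood ratio test, and ran from 0 to 316 when each of the 4 libraries of the 2 ages was left out in turn. The looser count of 236 became 915 with the Wald test, 550 with no filter, 793 with the likelihood ratio test, 88 with glmTreat and 28 with the 4 libraries alone, and ran from 27 to 2721 with a library left out. A replicate block raised it to 381 and left 0 called; the deviations of animals with the same number correlated at 0.126 between 100 and 120 days and at -0.172 to 0.363 over all pairs of ages, which gave no steady pairing, so the block was not used. Of alternatives added after the data were seen, those against animal 1 gave 2 genes with the Wald test and 0 to 0 with a library left out. Against animal 2 the 316 became 2503 with the Wald test, 1208 with no filter and 2378 with the likelihood ratio test, and ran from 0 to 886. The genotype difference ran from 0 to 191. A value of a named gene was labelled the same if its sign and its status as called or not were kept. It was stronger if it became called, and reversed if its sign turned. By this rule, of 1400 values 1332 were the same, 39 stronger and 29 reversed. No gene was called in the main fit, so the label does not show that the size of a change held. The log2 fold change of CEL ran from 0.997 to 4.72 with a library left out. The block turned GCG (0.19) and SCGN (0.041), and all 20 libraries turned COL1A1 (0.003). With a library left out the log2 fold change ran from -0.87 to 0.30 in CFTR, -0.56 to 4.55 in CYM, -1.72 to 1.00 in DIRAS3, -5.27 to 0.64 in LAT, -4.05 to 0.57 in SBSPON, -3.62 to 0.49 in DGAT2, -2.49 to 0.17 in ZEB2, -5.90 to 2.30 in FABP4, -8.74 to a bound of at least 5.95 in ADIPOQ (0 counts in animal 1), -0.052 to 1.40 in KRT8, -0.997 to 2.20 in GCG, -0.72 to 1.35 in SCGN, -0.47 to 1.48 in ISL1, -0.60 to 0.47 in COL1A1, -1.06 to 0.32 in COL3A1, -0.82 to 0.38 in DCN, -1.08 to 0.42 in SPARC, -2.72 to 0.012 in C1QB, -0.092 to 0.62 in TPM1, -3.62 to 0.41 in JCHAIN and -0.27 to 0.29 in PLVAP. Of 340 list medians 31 moved by more than the spread between animals, 21 of them without a 100-day library. The cause was not tested. A lone library is assumed to vary like animals at the remaining ages.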

Other observations

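Lists of cell types that a fetal pancreas sample could also hold were mostly low or mixed. Of 17 Schwann cell genes 8 were higher and 9 lower at 120 days (median log2 fold change -0.78 against both animals, 0.29 against animal 1 and -0.60 against animal 2), and the list summed to 191 and 267 CPM at 100 days and to 207 and 168 CPM at 120 days. Of 11 tested neuronal genes 6 were lower, 4 without overlap against 19.6% of all genes, and UCHL1 was the member with the most counts. The neuronal median was -0.29, -0.16 against animal 1 and 0.51 against animal 2, which is 0.00 with genes at 0 set to their bound. Erythroid genes summed to 35.2 and 93.1 CPM and to 58.8 and 63.3 CPM, with 11 of 14 lower and medians of -1.19, -0.27 and -0.19 (the last -0.35 with genes at 0 set to their bound); globin copies share reads and are uncertain. Intestinal genes summed to 166 and 61.9 CPM and to 165 and 164 CPM, and FABP1, FABP2, SI and LCT had 0 counts in all 4 libraries. A list of 8 genes of the X chromosome had a median of 0.11 and summed to 585 and 566 CPM and to 540 and 554 CPM. Thymus genes had a median of -0.07 over 7 tested, immediate early genes of -0.09 over 18, and potassium channel genes of -0.10 over 80, which is -0.04 with genes at 0 set to their bound. Of the 80 potassium channel genes 20 were higher and 9 lower without overlap, against 23.3% and 19.6% of all genes, and 3 were lower past the looser threshold (KCNK7, KCNN1 and KCNV1; 0.624% of all genes). Against animal 2 KCNJ12 and KCNQ1 rose (1.23% of all genes) and KCNN1 fell (0.383%).

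Liver-type plasma protein genes were mixed. Of 14 such genes 10 were higher and 5 did not overlap, against 23.3% of all genes, with medians of 0.71 against both animals, 0.14 against animal 1 and 4.69 against animal 2, the latter being 1.62 with genes at 0 set to their bound. The list summed to 988 and 1560 CPM at 100 days and to 974 and 1468 CPM at 120 days. AHSG, a plasma protein made by fetal liver, stood at 61.5 and 6.68 CPM at 100 days and at 267 and 225 CPM at 120 days (log2 fold change 2.85, SE 1.7). At the other ages AHSG was uneven, at 4.96 and 1631 CPM at 65 days, 11.2 and 8.12 CPM at 80 days, with 2926 and 1270 CPM at term, so the animals of 1 age can differ by more than the ages compared here.

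Read across all 5 ages of CF pancreas, a few leading genes were followed. FBN3 stood at 79.4 and 90.9 CPM at 65 days, 32.7 and 43.7 CPM at 80 days, with 1.23 and 1.11 CPM at term, so that the 100-day and 120-day values were steps of a longer decline. NES stood at 181 and 122 CPM at 65 days, 72.6 and 94.5 CPM at 80 days, with 15.4 and 17.6 CPM at term, with 76.8 and 133 CPM at 100 days, so it did not decline at every step. REG1A stood at 12.6 and 3.95 CPM at 65 days, 13.4 and 4.82 CPM at 80 days, with 6639 and 2212 CPM at term. It was also high in WT at term, at 99050 and 2851 CPM on the scale of all 20 libraries. On that scale the CF term animals stood at 6784 and 2239 CPM. ARF4 stood at 26.7 and 42.0 CPM at 65 days and at 20.8 and 11.8 CPM at term, and SQSTM1 at 53.5 and 54.7 CPM and at 47.6 and 34.2 CPM, so for both the 100-day libraries were the low ones. These trajectories are descriptions of 2 animals per age and were not tested here.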
